A study of Mus musculus with 6 samples.

Results

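Neuron maturation genes were followed in mouse enterospheres exposed to thyroid hormone. The 35 genes were taken as a list by name and cover microtubule and actin regulators, growth cone proteins, RNA-binding proteins, a few transcription factors and surface or secreted proteins of neurons. All 35 were represented among the 19938 genes of the array that had a probe set with a single gene symbol. They were divided by known biology into 19 genes typical of immature neurons and 16 pan-neuronal genes, which neurons also keep when mature. Genes and classes were set with earlier results of these arrays known. The question put to the data was whether these classes differed in how their levels stood with hormone against without it.

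Enterospheres are free-floating clusters that contain neural progenitors of the enteric nervous system, the nerve network of the gut wall. They were grown from gut muscle of newborn C57BL/6 mice no older than 12 hours, with 3 mice for each sample. Spheres were expanded with EGF and FGF for 4 days and then a further 5 days, and were kept in differentiation medium without those factors for 1 day. The T3 group (3 samples) was then held for 1 more day with 100 nM triiodothyronine, the receptor-active thyroid hormone (the labels write the unit as nm), and the control group (3 samples) for the same day without it. All animals were of the same strain, no allele was altered, and each sample was read on 1 array. Whole spheres were measured, so fewer cells of a type and less RNA per cell cannot be told apart.

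A newborn neuron leaves the cell cycle under proneural factors, switches on microtubule-binding proteins such as doublecortin, and extends a neurite whose tip is steered by actin and membrane proteins of the growth cone. As it matures, the early factors and doublecortin are switched off, while tubulin beta-3, the Hu RNA-binding proteins, tau and MAP2 stay on. Thyroid hormone is known for timing such transitions in the developing brain, and its receptors act on DNA as transcription factors.

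Values are log2 expression of a probe set, and a change is the mean of the 3 T3 arrays minus the mean of the 3 control arrays on that log2 scale. A gene was called when its limma p, adjusted by Benjamini-Hochberg over all 19938 genes, was below 0.05. Of all genes tested, 3.10% were called, 2.28% higher and 0.823% lower with T3. The 6 arrays had medians between 6.93 and 7.00 over these genes, and the SD of the difference between arrays was 0.137 to 0.243 within a group and 0.223 to 0.267 between groups. The 8 measured enteric progenitor markers (Sox10, Ret, Ednrb, Ngfr, Nes, Erbb3, Foxd3 and Sox2) had a mean log2 level of 11.35 to 11.40 in controls and 11.29 to 11.40 with T3, and none was called by limma, with 1 higher (Ret) and 1 lower (Sox2) at an unadjusted p below 0.05. The 8 macrophage markers lay at 4.96 to 5.07 and 4.97 to 4.99, near the lower quartile of the arrays.

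Of the 35 neuron maturation genes, 6 were called, all of them in the immature-neuron class. Igfbpl1, Insm1, Marcksl1 and Dcx fell with T3, and Tagln3 and Dclk1 rose. The 6 make up 17.1% of the 35, against 3.10% of all genes. The 35 and their classes had been set with earlier results of these arrays in view. This share and the split of the calls between the classes are therefore a description. Within the immature-neuron class 4 of 19 fell, 2 rose and 13 did not pass. None of the 16 pan-neuronal genes was called by limma, while 3 of them (Rbfox3, Celf4 and Nrn1) were higher and 0 lower at an unadjusted p below 0.05, where 8.92% of all genes were higher and 4.80% lower. Leaving out control replicate 2 kept the number of called members at 6, whereas it was 2 without T3 replicate 1 and 1 in each of the other 4 such fits (T3 replicates 2 and 3, controls 1 and 3). Over all genes the number called moved too, from 191 without control replicate 1 to 640 without control replicate 2, against 618. Igfbpl1 was the gene that passed in each of these 6 fits.

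**Figure D1:**
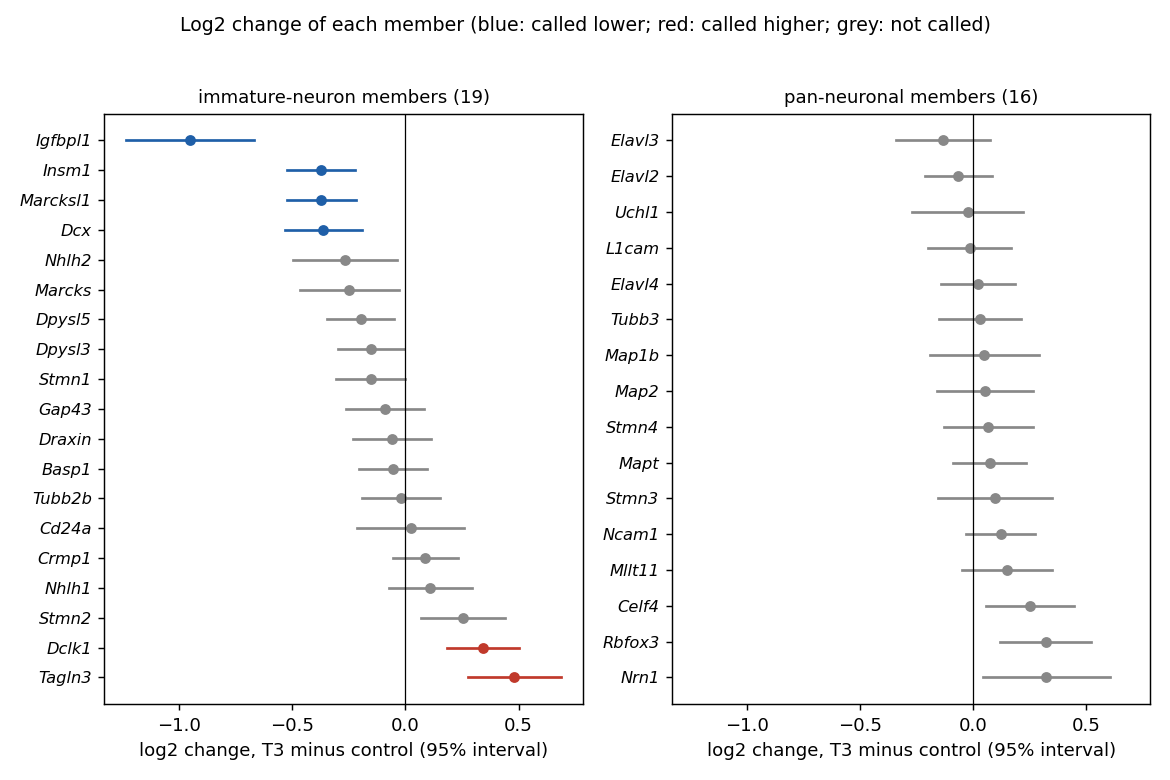
Log2 change (T3 minus control, horizontal axis) of each of the 19 immature-neuron genes (left) and 16 pan-neuronal genes (right), with its 95% interval from limma. The 4 intervals in blue lie wholly below 0 and belong to called genes, the red ones are Dclk1 and Tagln3, and every pan-neuronal gene is grey.

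RefSeq start sites were available for 21 of the 35 genes. For the called genes among them, Dcx and Marcksl1, which fell, and Tagln3 and Dclk1, which rose, the 250 bases before the outermost listed start are printed so that the regions in front of genes that moved in opposite directions can be compared. They are given 5′ to 3′ on the gene's strand in build GRCm38.p6. Dcx lies at chrX:143933220-143933469 on the minus strand, Marcksl1 at chr4:129513331-129513580 on the plus strand, Tagln3 at chr16:45724532-45724781 on the minus strand and Dclk1 at chr3:55242114-55242363 on the plus strand. Capitals mark the letters of the motifs searched.
Dcx: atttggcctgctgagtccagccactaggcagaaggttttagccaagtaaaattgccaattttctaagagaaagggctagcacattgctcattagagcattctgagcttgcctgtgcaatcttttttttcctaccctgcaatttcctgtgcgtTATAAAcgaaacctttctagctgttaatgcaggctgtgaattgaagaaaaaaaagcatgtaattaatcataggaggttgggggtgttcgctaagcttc
Marcksl1: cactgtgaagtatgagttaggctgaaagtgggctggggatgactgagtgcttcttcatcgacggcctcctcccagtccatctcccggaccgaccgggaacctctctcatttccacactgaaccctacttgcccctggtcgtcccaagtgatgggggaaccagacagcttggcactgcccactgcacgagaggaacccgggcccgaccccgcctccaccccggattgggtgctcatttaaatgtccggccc
Tagln3: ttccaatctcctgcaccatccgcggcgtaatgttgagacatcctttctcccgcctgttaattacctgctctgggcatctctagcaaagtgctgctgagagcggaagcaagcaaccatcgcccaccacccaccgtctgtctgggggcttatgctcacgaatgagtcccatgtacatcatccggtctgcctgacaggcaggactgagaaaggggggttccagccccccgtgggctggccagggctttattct
Dclk1: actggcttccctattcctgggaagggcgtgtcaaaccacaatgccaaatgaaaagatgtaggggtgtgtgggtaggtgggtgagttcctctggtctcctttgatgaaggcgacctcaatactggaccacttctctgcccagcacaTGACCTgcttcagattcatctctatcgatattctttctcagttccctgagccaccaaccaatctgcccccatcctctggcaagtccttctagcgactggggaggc

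The motifs searched on both strands were AGGTCA, the half-site that thyroid hormone receptors recognise, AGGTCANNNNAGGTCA, its direct repeat with 4 bases between, which contains the half-site, and TATAAA, the core of a TATA box. In windows of 250 bases before to 50 after a start, AGGTCA was found in 16.3% of 32851 windows and in 4 of the 33 windows of the 21 genes, or 12.1%. Those 4 belonged to Crmp1, Dclk1 and Elavl4. In Dclk1 the match runs from -105 to -100 relative to the outermost start, on the opposite strand. The direct repeat was found in 0.0152% of all windows and in 0 of the 33. TATAAA occurred in 13.6% of all windows and in 4 of the 33, among them Dcx, from -98 to -93. The upstream stretch of Dcx has 41.6% G and C with 3 CpG, and that of Marcksl1 60.4% with 12 CpG, so base composition differed between these genes that both fell; the median over all windows was 52.4%. Tagln3 has 57.2% and 10 CpG, and Dclk1 52.4% and 4 CpG.

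Among the transcription factors, Insm1, a zinc-finger factor of neuronal and neuroendocrine precursors (probe set 10476814), was lower with T3. Its log2 values were 8.334, 8.347 and 8.425 in controls and 8.005, 7.983 and 7.996 with T3. The groups did not overlap, and the T3 arrays lay within a narrow band, with an SD of 0.01 against 0.05 in controls (n = 3 each). The log2 change was -0.37 ± 0.07 (SE), a 1.30-fold fall, with limma adjusted p = 0.0221. The call held without control replicate 2 and was lost without any other single array, with adjusted p up to 0.0982. The helix-loop-helix factors Nhlh1 and Nhlh2, which mark neurons just after they leave the cycle, were dim, with means from 4.20 to 4.49, and it is not known whether they exceeded background. Nhlh2 had a change of -0.27 (adjusted p = 0.269) and Nhlh1 one of 0.11 (adjusted p = 0.677), and the groups of both overlapped.

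Among microtubule genes, Dcx fell and its relative Dclk1 rose. Dcx encodes doublecortin, which binds and stabilises microtubules in migrating young neurons (probe set 10607156). It read 8.43, 8.37 and 8.40 in controls and 7.93, 8.07 and 8.11 with T3. Every T3 array lay below every control array, and T3 replicate 1 was the lowest. The change was -0.36 ± 0.07 (SE), a 1.29-fold fall with limma adjusted p = 0.038, and it passed in 0 of the 6 fits that left out an array (adjusted p 0.0602 to 0.177). Dclk1 encodes a kinase that carries doublecortin domains (probe set 10492136). It read 8.82, 8.96 and 8.83 in controls and 9.22, 9.21 and 9.21 with T3. The T3 arrays were nearly equal, at an SD of 0.01, and all lay above the controls. Its change was 0.34 ± 0.07 (SE), a 1.27-fold rise with limma adjusted p = 0.0382, and it passed only without control replicate 2 among the 6 fits (adjusted p up to 0.188). The 95% interval of the Dcx change, -0.53 to -0.19, and that of Dclk1, 0.18 to 0.50, lie on opposite sides of 0; the difference between the genes was not tested. Of the other doublecortin-like kinases on the array, Dclk2 had a change of -0.29 (adjusted p = 0.212, groups not overlapping) and Dclk3 one of -0.03 (adjusted p = 0.963).

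**Figure D2:**
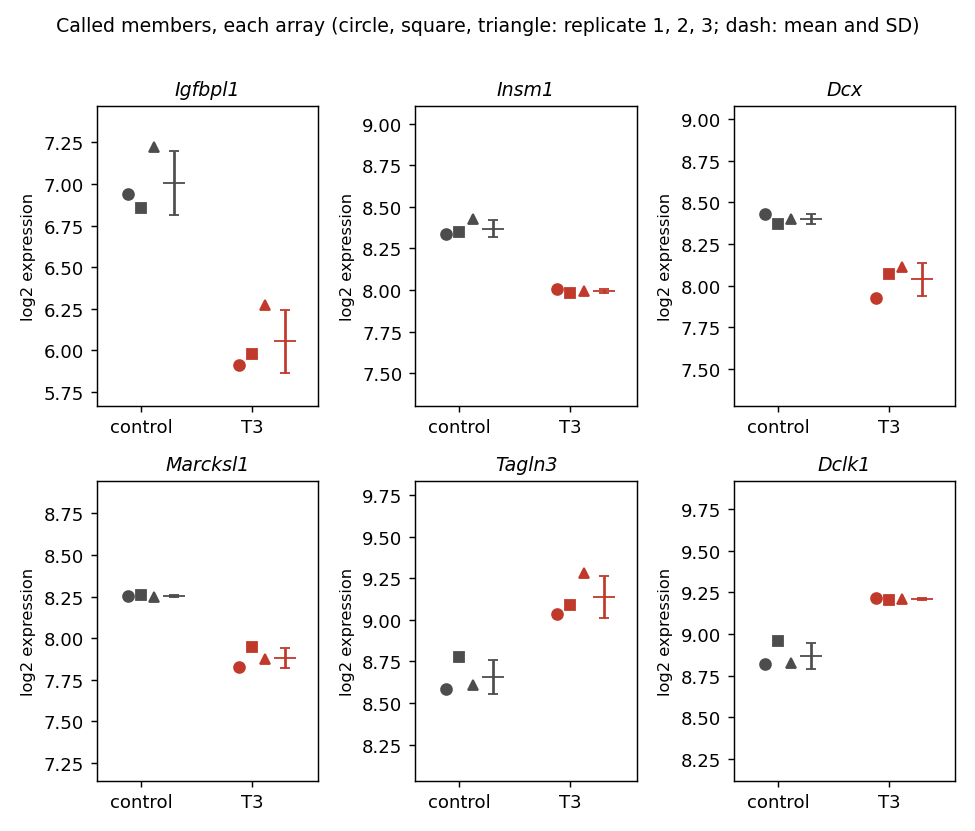
Log2 expression (vertical axis, a span of the same width in each panel) of the 6 called genes on each control (grey) and T3 (red) array, with the mean and SD of each group of 3 beside the points. Igfbpl1, Insm1, Dcx and Marcksl1 sit lower with T3, Tagln3 and Dclk1 sit higher, and in none of the 6 do the groups overlap.

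Neither of the 2 tubulin members, Tubb3 and Tubb2b, passed. Tubb3, the neuronal beta-tubulin used to stain neurons, read 10.81, 10.85 and 10.90 in controls and 10.77, 10.89 and 11.00 with T3. The groups overlapped across their whole range, and the change was 0.03 with a 95% interval of -0.15 to 0.21. Tubb2b, a beta-tubulin of migrating neurons, had a change of -0.02 (-0.19 to 0.15), and another probe set that the annotation assigns to Tubb2b and a further gene, left out of the test, had one of -0.08. The dendritic protein gene Map2 read 10.58, 10.60 and 10.34 in controls and 10.66, 10.49 and 10.53 with T3. Control replicate 3 was the lowest of the 6 arrays, and the change was 0.05 with an interval of -0.16 to 0.26. Mapt (tau) and Map1b, axonal microtubule-associated proteins, changed by 0.07 and 0.05 with adjusted p of 0.781 and 0.930. For Tubb3, Map2, Map1b and Tubb2b the sign turned in at least 1 of the other scalings, weightings or fits without an array.

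The stathmins sequester tubulin dimers and so promote microtubule turnover, and none of the 4 was called by limma. Stmn1, which dividing cells also carry, read 11.23, 11.24 and 11.32 in controls and 11.09, 11.08 and 11.15 with T3. All T3 arrays were lower, by a small margin, and the change of -0.15 ± 0.07 (SE) had an adjusted p of 0.363. Its other probe set gave -0.16. Stmn2, the neuron-specific stathmin of growing axons, had control values of 11.66, 11.71 and 11.51 and T3 values of 11.96, 11.81 and 11.87. Here all T3 arrays were higher, and the change of 0.25 ± 0.08 (SE) had an adjusted p of 0.178, or 0.0398 when limma was run with trend and robust fitting. Stmn3 and Stmn4, at 0.10 and 0.07, had overlapping groups and adjusted p of at least 0.826. The second probe set of Stmn3 was dim, at 4.12 in controls.

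The collapsin response mediator proteins carry semaphorin signals to the cytoskeleton, and the 3 members of this family examined here, Dpysl3, Dpysl5 and Crmp1, had small changes with tight replicates. Dpysl3 ran from 12.08 to 12.13 in controls and from 11.92 to 11.97 with T3, a change of -0.15 ± 0.06 (SE, adjusted p = 0.330). Dpysl5 ran from 10.47 to 10.54 and from 10.27 to 10.34, a change of -0.20 ± 0.07 (SE, adjusted p = 0.189). Crmp1 stood on the other side, from 10.37 to 10.40 in controls and 10.46 to 10.48 with T3, a change of 0.09 (adjusted p = 0.672). The groups did not overlap for any of the 3, as for 19.5% of all genes, and none passed in limma; with trend and robust fitting Dpysl3 had an adjusted p of 0.0450. Of the remaining family genes, Dpysl2 had a change of -0.03 (adjusted p = 0.924) with overlapping groups and Dpysl4 one of 0.20 (adjusted p = 0.206) without overlap.

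The growth cone proteins share a place under the plasma membrane where they bind phosphoinositides or actin, and all 4 stood below 0. Marcksl1, the MARCKS-like actin regulator (probe set 10508465), was the called gene among them. It read 8.25, 8.26 and 8.25 in controls and 7.83, 7.95 and 7.87 with T3. Its control arrays differed by little, with an SD of 0.01, and the T3 arrays were all lower. The change was -0.37 ± 0.07 (SE), a 1.29-fold fall with limma adjusted p = 0.0246; this call held without control replicate 2 and was lost without any other single array (adjusted p up to 0.119). Marcks, found in many cell types, had a change of -0.25 ± 0.10 (SE, adjusted p = 0.285) with overlapping groups. Gap43, a marker of axon outgrowth, read 11.84, 11.92 and 12.01 in controls and 11.79, 11.80 and 11.91 with T3. Its groups overlapped and the change was -0.09, with an interval of -0.26 to 0.08. Basp1, a related growth cone protein, had -0.06 (adjusted p = 0.835).

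No RNA-binding member was called by limma, but Rbfox3 came nearest among the pan-neuronal genes. Rbfox3 encodes NeuN, a splicing regulator that appears as neurons mature (probe set 10393594). It read 8.05, 8.24 and 7.95 in controls and 8.43, 8.34 and 8.43 with T3. The groups did not overlap, at a gap of 0.10 between control replicate 2 and T3 replicate 2. The change was 0.32 ± 0.09 (SE) with limma adjusted p = 0.114. It passed without control replicate 2 (adjusted p = 0.0373) but not without any other single array (adjusted p 0.224 to 0.375). Celf4, a regulator of neuronal mRNA, stood at 9.48 to 9.74 in controls and 9.83 to 9.93 with T3, a change of 0.25 ± 0.09 (SE, adjusted p = 0.206).

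The Hu proteins stabilise neuronal transcripts and serve as the standard label of enteric neurons. Elavl4 (HuD) read 9.36, 9.49 and 9.34 in controls and 9.47, 9.38 and 9.39 with T3. The groups overlapped and the change was 0.02, with an interval of -0.14 to 0.19. Elavl3 (HuC) had a change of -0.13 (-0.34 to 0.07) and Elavl2 (HuB) one of -0.07 (-0.21 to 0.08).

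**Figure D3:**
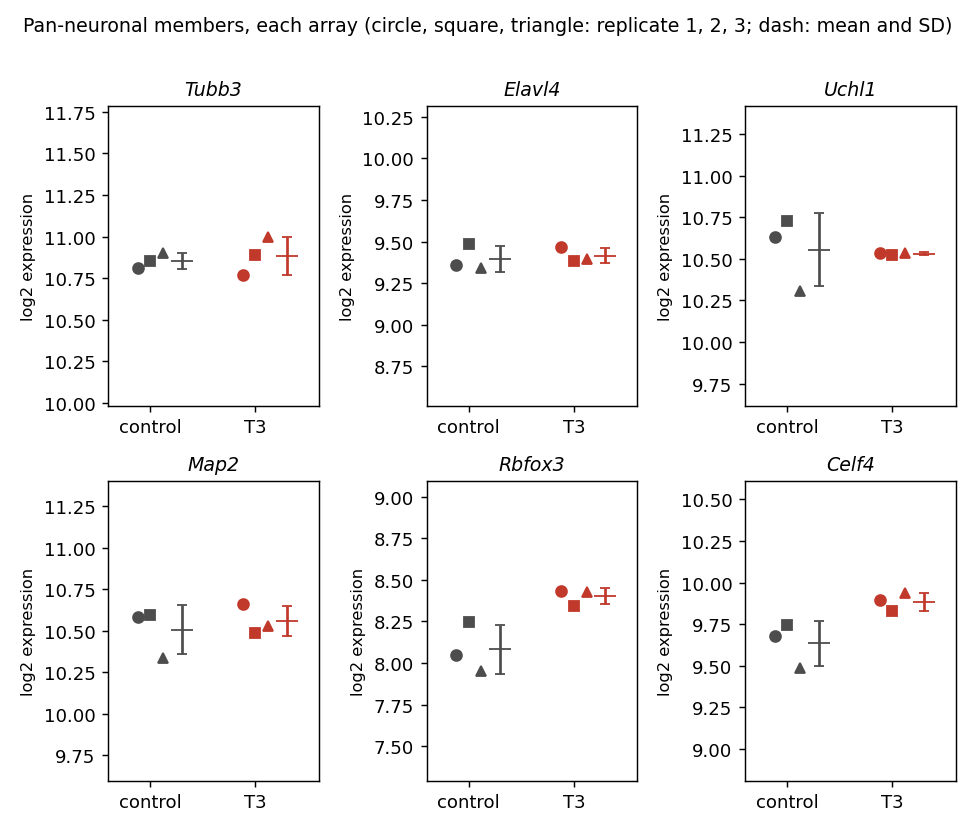
Log2 expression (vertical axis, a span of the same width in each panel) of 6 pan-neuronal genes on each control (grey) and T3 (red) array, with the mean and SD of each group of 3. Tubb3, Elavl4, Uchl1 and Map2 overlap between groups, and Rbfox3 and Celf4 lie higher with T3 without passing the test.

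Of the surface and secreted proteins, Igfbpl1 had the largest change of all 35 genes and ranked 84 of 19938 by size of change in either direction. It encodes a secreted protein related to the insulin-like growth factor binding proteins that is found in newborn neurons (probe set 10512721). It read 6.94, 6.86 and 7.22 in controls and 5.91, 5.98 and 6.27 with T3. The highest T3 array was 0.58 below the lowest control, and in both groups replicate 3 was the highest. The change was -0.95 ± 0.12 (SE), a 1.93-fold fall with limma adjusted p = 0.00655, and adjusted p stayed between 0.00874 and 0.0334 when each array was left out in turn. Nrn1, neuritin, which promotes neurite growth, ran from 7.17 to 7.43 in controls and from 7.38 to 7.81 with T3. The change of 0.32 ± 0.12 (SE) did not pass (adjusted p = 0.273), and T3 replicate 1 overlapped the controls. The axon guidance protein gene Draxin, the surface glycoprotein gene Cd24a and the adhesion molecule genes Ncam1 and L1cam changed by -0.06, 0.02, 0.12 and -0.02, with adjusted p from 0.504 to 0.980.

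The other members were Tagln3, Mllt11 and Uchl1. Tagln3, a calponin-like cytoskeletal protein of neurons (probe set 10439695), read 8.58, 8.77 and 8.61 in controls and 9.04, 9.09 and 9.28 with T3. All T3 arrays were above all controls, and the change of 0.48 ± 0.09 (SE) was a 1.40-fold rise with limma adjusted p = 0.0279. It passed without T3 replicate 1 or control replicate 2 and was lost without any of the other 4 arrays (adjusted p up to 0.140). Uchl1, the ubiquitin hydrolase PGP9.5 of all neurons, read 10.63, 10.73 and 10.31 in controls and 10.53, 10.52 and 10.54 with T3. The T3 arrays lay inside the wide control range, and the change was -0.02 with an interval of -0.27 to 0.22. Mllt11, a neuronal protein of less defined function, had 0.15 (adjusted p = 0.551).

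**Figure D4:**
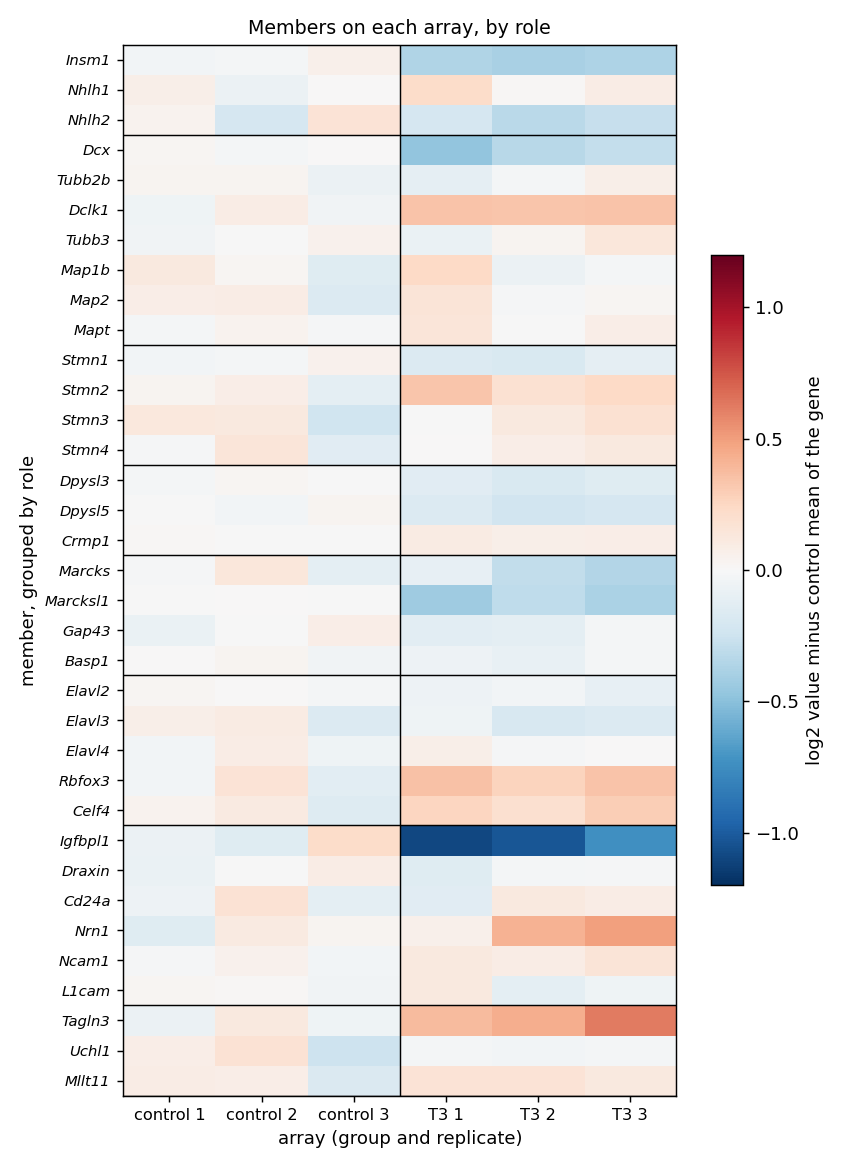
Each row is a gene, grouped by role between the horizontal lines, and each column an array (3 control, 3 T3); colour gives the log2 value minus the control mean of that gene, blue lower and red higher. Igfbpl1 is the deepest blue on the T3 arrays, and on control replicate 3 pan-neuronal genes such as Uchl1 and Stmn3 are bluer than on the other controls.

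Set side by side, the immature-neuron class had a median log2 change of -0.09 with 13 of 19 genes below 0, and the pan-neuronal class a median of 0.06 with 12 of 16 above 0. Of these, Cd24a, Draxin, Tubb2b, Tubb3, Elavl4, Uchl1, Map1b, Map2, Stmn3 and L1cam turned sign in at least 1 alternative fit. Over all genes the median was 0.0088, with 10617 of 19938 above 0. The difference of the class medians was -0.15, and it ran from -0.21 to -0.07 when each array was left out. No test of this difference was made, because the genes and classes were set with earlier results known. Groups of 3 arrays did not overlap for 16 of the 35 genes, against 19.5% of all genes. In the immature-neuron class 7 were lower without overlap (7.55% of all genes were) and 4 higher (11.9% of all genes). In the pan-neuronal class 1 was lower, Elavl2, and 4 were higher, Rbfox3, Celf4, Mllt11 and Ncam1.

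The pan-neuronal genes were low together on control replicate 3. Their mean deviation from the control mean was 0.02, 0.08 and -0.10 on control replicates 1, 2 and 3, and 0.09, 0.06 and 0.10 on the T3 arrays. Control replicate 3 was the lowest control for 13 of the 16 genes, and control replicate 2 stood among the T3 arrays. Without control replicate 3 the pan-neuronal median was -0.0026, so its side of 0 depended on that array. The low reading on control replicate 3 was not particular to this class. The mature enteric neuron markers described below read -0.01, 0.11 and -0.10 on control replicates 1, 2 and 3. On the T3 arrays those markers read 0.51, 0.39 and 0.42. The immature-neuron class read -0.02, 0.01 and 0.01 in controls and -0.12, -0.12 and -0.07 with T3, which did not overlap. This class mean includes the 6 called genes, among them Igfbpl1, whose change of -0.95 was the largest of all members. A class mean without Igfbpl1 was not computed. By gene, 7 of the 19 lay lower without overlap and 4 higher without overlap. The shift of the class mean was therefore not shared by every gene of the class.

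**Figure D5:**
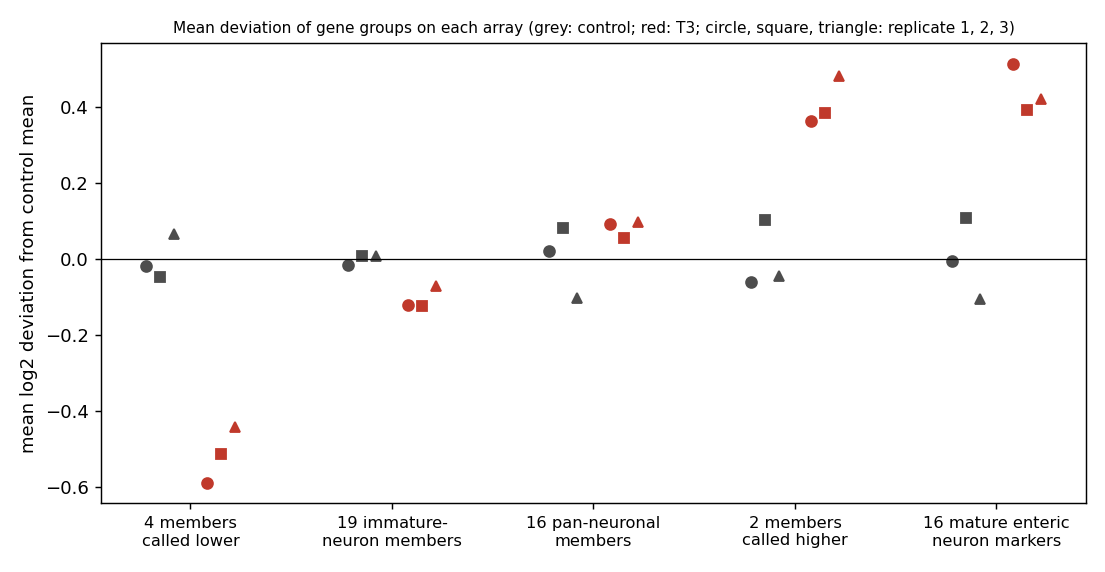
Mean log2 deviation from the control mean (vertical axis) of gene groups on each array, grey for control and red for T3, with the symbol giving the replicate number. The pan-neuronal genes spread over the controls from -0.10 to 0.08 with the T3 arrays at their upper end; the 4 genes called lower and 2 called higher were picked for their change and are shown as a description.

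Other genes of the same families were counted from lists drawn up from known biology, again with earlier results of these arrays known. Of 8 measured further tubulin genes 1 rose, Tuba4a, an alpha-tubulin of differentiated cells, at 0.61 ± 0.11 (SE) with limma adjusted p = 0.0249, and 7 did not pass. The Tuba4a call held without control replicate 2 and was lost without any other single array (adjusted p up to 0.125). Of 26 further microtubule-associated proteins and kinesins 1 fell, the kinesin gene Kif21b, at -0.63 ± 0.07 (SE) with limma adjusted p = 0.00258, and 25 did not pass. The shares called were 12.5% of the 8 tubulin genes and 3.85% of these 26, against 3.10% of all genes. Kif21b passed in all 6 fits without an array. None of 20 further neuronal RNA-binding genes was called by limma. At an unadjusted p below 0.05, 2 were higher and 2 lower, where 8.92% of all genes were higher and 4.80% lower. The largest positive change was that of Celf6 at 0.50 (limma adjusted p = 0.0645). The largest negative change was that of Celf3 at -0.34 (limma adjusted p = 0.15). Of the 20, 6 stood above 0 and 14 below. The medians of these lists were 0.01, 0.03 and -0.03, close to the 0.0088 of all genes.

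Further factors of immature neurons included 3 that fell and none that rose by limma. Of 19 measured, 16 did not pass, so 15.8% were called against 3.10% of all genes. Above 0 stood 9 of the 19 and below 0 stood 10, with a median of -0.07. At an unadjusted p below 0.05 there were 5 lower and 1 higher, Myt1l. Sox11, a transcription factor that drives the early neuronal program, read 8.37, 8.48 and 8.47 in controls and 7.19, 7.22 and 7.28 with T3. St18, a zinc-finger factor of the Myt family, fell by 0.67 and the proneural gene Neurod4 by 0.71 on the log2 scale. Adjusted p by limma was 0.000176 for Sox11, 0.00424 for St18 and 0.0333 for Neurod4. The other Myt genes of this list stood above 0. Myt1l had a change of 0.25 (limma adjusted p = 0.118, groups not overlapping) and Myt1 one of 0.09 (limma adjusted p = 0.75). Sox11 and St18 passed whichever array was left out, and Neurod4 passed without control replicate 2 but not without any of the other arrays (adjusted p up to 0.140). Sox11 and Neurod4 had been reported on these arrays before, so the count is not independent evidence of a direction.

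Genes of differentiated enteric neurons stood higher on the same arrays. Of 16 measured, 7 rose (Prph, Cartpt, Dbh, Chga, Scg2, Nos1 and Snap25), 0 fell and 9 did not pass, with a median change of 0.46. The share called was 43.8%, against 3.10% of all genes. Above 0 stood 14 of the 16, and 2 stood below, Syt1 at -0.04 and Chat at -0.01. The mean log2 level of the 16 ran from 8.34 to 8.55 in controls and from 8.84 to 8.96 with T3. Snap25, a protein of synaptic vesicle fusion, rose by 0.33 ± 0.07 (SE, limma adjusted p = 0.0395), and Nos1, the nitric oxide synthase of inhibitory enteric neurons, by 0.50 ± 0.10 (SE, limma adjusted p = 0.0346). Of the 7, Prph passed whichever array was left out. Snap25 passed in 0 of the 6 such fits (adjusted p up to 0.156), nor after centring on the array median or 75th percentile, and Nos1 passed only without control replicate 2 (up to 0.145). Scg2, Chga, Cartpt and Dbh passed in 1, 3, 4 and 4 of the 6 fits, and all 4 were lost without T3 replicate 3. Part of this list had been reported on these arrays before, so its count is not independent evidence of a direction.

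Markers of other cells moved to differing degrees on these arrays. Over all genes 10617 of 19938 were above 0, and 2.28% were called higher and 0.823% lower. At an unadjusted p below 0.05, 8.92% of all genes were higher and 4.80% lower. Of 15 mitosis genes 14 were above 0 and 0 were called by limma (8 higher at an unadjusted p below 0.05); their mean log2 level was 6.88 to 7.09 in controls and 7.12 to 7.35 with T3. Of 10 fibroblast genes 8 were below 0 and 0 called (3 lower at an unadjusted p below 0.05), with 10.12 to 10.27 in controls and 10.00 to 10.08 with T3. Of 8 glial genes 3 rose, Kcna1, Gfra3 and Sostdc1, and 5 did not pass. These 5 were Gfap at -0.20, S100b at -0.14, Mbp at -0.09, Cdh19 at 0.08 and Fabp7 at 0.03. The median of the 8 was 0.05. The mean level of the 8 was 8.65 to 8.77 in controls and 9.01 to 9.10 with T3. Without Kcna1, which had a change of 1.95, it was 8.57 to 8.70 and 8.70 to 8.81. Sostdc1 passed in 0 of the 6 fits without an array (adjusted p up to 0.182) and not after either centring or with trend and robust fitting, and Gfra3 was lost without T3 replicate 2 or 3 or control replicate 1 (up to 0.0667). Of 10 smooth muscle genes 3 rose and 2 fell, with 7.39 to 7.54 and 7.54 to 7.62. Of 5 genes of interstitial cells of Cajal 2 rose, with 9.48 to 9.66 and 9.72 to 9.84, and of 8 endothelial genes 1 rose and 2 fell, with 6.11 to 6.27 and 6.08 to 6.30. The part of these cells in the changes of Stmn1, Marcks, Marcksl1 and the other members was not tested.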

How the data were processed

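Total RNA of 3 T3 and 3 control samples was read on Affymetrix mouse gene arrays, 1 per sample. The log2 values of 35556 probe sets were deposited by the authors, made with RMA and Partek 6.5 per the submitters' processing notes, with settings and genome build not given in the sources used here. RMA as usually run includes quantile normalization, which removes changes common to most genes, and its values carry no detection calls. Probe sets with 1 gene symbol in the platform annotation (21789) were kept and the brightest per gene by its mean over the 6 arrays was used, giving 19938 genes.

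T3 minus control was fitted with limma 3.58.1 in R 4.3.3 (lmFit, eBayes) and adjusted by Benjamini-Hochberg over all genes. Errors are SE from limma or SD over 3 arrays. Nothing says whether samples of a group were separate cultures beyond their 3 mice each, so p-values cover only the variation among these arrays. The number of arrays limits the precision. The procedure was tested on simulated data, where it called 52.6% of changes of 0.5 and 92.3% of changes of 1 on the log2 scale. Smaller changes, such as those of every member but Igfbpl1, were not simulated. The simulated noise was drawn for each gene on its own, with no shift shared by the genes of an array. A gene that was not called is thus not shown to be unchanged. The members and lists were chosen with earlier results of these data known. Members were all open to naming, with full values for called ones, those with unadjusted p below 0.01 and 7 preset ones. Other lists gave up to 4 genes of smallest p. Snap25, Nos1, Scg2, Chat, Syt1, Dclk2, Dclk3, Dpysl2, Dpysl4, S100b, Mbp, Cdh19, Fabp7, Myt1 and Myt1l were named after their values were seen. The glial level without Kcna1 was also added then. Listed genes with no single-symbol probe set were not analysed here. The alternatives tried are in the closing section.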

Additional observations from a re-analysis of the deposited data

How the results depend on the processing

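Of the 35 genes, 6 were called, and 5 to 8 were under renewed quantile normalization, centring on the array median or 75th percentile, a filter on the dimmest 25% or the dimmest 50% (which removes Igfbpl1), averaged probe sets, and trend with robust fitting. Array quality weights gave 14, of which 4 were pan-neuronal (Elavl3, Rbfox3, Celf4 and Nrn1), while 3548 of all 19938 genes were called against 618. Leaving out each array gave 1 to 6 members, with 191 to 640 genes in all. With the replicate number as a block, 2 were called, Igfbpl1 and Tagln3, among 472 genes in all against 618. The numbers were not taken as pairs: deviations of same-numbered arrays correlated at 0.18, 0.02 and 0.00017, and not every array correlated best with its own number. With the replicate block, adjusted p was 0.0572 for Insm1, 0.0595 for Marcksl1, 0.0818 for Dcx and 0.084 for Dclk1; of the other genes named as called, Snap25 (0.0849), Nos1 (0.0532) and Sostdc1 (0.0720) were lost as well.

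The class medians differed by -0.16 to -0.12 under those 9 settings. The sign turned for Cd24a at -0.0033 (array median) and -0.0073 (75th percentile), Elavl4 at -0.0057 and -0.0096, Tubb3 at -0.00091 (75th percentile), and, with array weights, Draxin at 0.030, Map1b at -0.11 and Map2 at -0.046. Leaving out an array, changes ran from -0.034 to 0.11 for Cd24a, -0.0064 to 0.066 for Elavl4, -0.083 to 0.035 for L1cam, -0.044 to 0.11 for Map1b, -0.032 to 0.097 for Map2, -0.023 to 0.16 for Stmn3, -0.065 to 0.023 for Tubb2b, -0.026 to 0.086 for Tubb3 and -0.15 to 0.061 for Uchl1. The cause of these differences was not tested. Signal over background is unknown, which limits Nhlh1 and Nhlh2 most.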
